A study of Homo sapiens with 12 samples.

Results

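A set of 10 genes known as transcriptional targets of MITF outside the classical pigmentation set was followed through the vemurafenib response of human melanoma cells: EDNRB, GPNMB, GPM6B, TRPM1, QPCT, ST3GAL6, ACP5, CAPN3, TBC1D16 and BIRC7. They were chosen by name. Of these 10 genes, 8 had a probe set of their own among the 18404 genes measured. The probe set of CAPN3, a calcium-dependent protease of skeletal muscle, is annotated with more than 1 gene, and ACP5, the tartrate-resistant acid phosphatase of osteoclasts, has no named probe set in the annotation used. The levels of CAPN3 and ACP5 were therefore not analysed here.

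The 12 arrays (Affymetrix Human Gene 1.0 ST, total RNA) fell into 4 groups of 3 by line and agent: A375 with vemurafenib, A375 with DMSO, A2058 with vemurafenib and A2058 with DMSO. A375 and A2058 are established human melanoma lines, and every sample carries the label BRAF V600E, so no group without that mutation was included. Vemurafenib, an inhibitor of the mutant BRAF kinase, was given at 1 µM for 72 h and renewed every 24 h, and its solvent DMSO served as the control. The dose and time come from a protocol text that is attached to the A2058 samples too, although it mentions A375p only. Each line is 1 genotype, and nothing in the labels says that the 3 arrays of a group came from separate cultures, so p-values measure the spread between these arrays, which may be technical.

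MITF is the basic helix-loop-helix leucine zipper factor that directs melanocyte development. It binds E-boxes, most often the letters CACGTG or CATGTG, the second being the core of the longer M-box (TCATGTG) found upstream of pigment genes. In melanoma it is set downstream of several signals that the BRAF and ERK kinases influence, and its targets reach beyond pigment into membrane traffic, lysosomes, receptors and survival.

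The upstream sequences below are shown because these letters are what MITF is known to bind. The 250 bases before the annotated start are printed 5′ to 3′ on the gene's strand, from RefSeq on build GRCh38.p14, with E-box letters in capitals. GPNMB lies at chr7:23246525-23246774 on the plus strand. The EDNRB stretch, before the first of its annotated starts, lies at chr13:77919683-77919932 on the minus strand. The TRPM1 stretch, before the second of its annotated starts, lies at chr15:31101726-31101975 on the minus strand, and BIRC7 at chr20:63235655-63235904 on the plus strand.
GPNMB: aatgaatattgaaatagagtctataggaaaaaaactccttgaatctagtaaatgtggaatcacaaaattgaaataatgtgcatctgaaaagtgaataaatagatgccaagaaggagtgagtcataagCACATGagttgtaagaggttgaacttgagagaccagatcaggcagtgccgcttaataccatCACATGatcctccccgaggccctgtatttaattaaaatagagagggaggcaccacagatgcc
EDNRB: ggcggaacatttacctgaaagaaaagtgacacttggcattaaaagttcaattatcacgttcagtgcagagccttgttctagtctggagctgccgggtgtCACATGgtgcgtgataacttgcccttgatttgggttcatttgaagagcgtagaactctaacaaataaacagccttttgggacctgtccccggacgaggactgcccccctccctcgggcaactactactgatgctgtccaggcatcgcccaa
TRPM1: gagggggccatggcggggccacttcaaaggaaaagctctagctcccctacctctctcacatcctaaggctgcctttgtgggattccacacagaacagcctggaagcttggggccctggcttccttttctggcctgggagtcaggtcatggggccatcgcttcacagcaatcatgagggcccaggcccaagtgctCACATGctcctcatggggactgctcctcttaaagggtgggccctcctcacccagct
BIRC7: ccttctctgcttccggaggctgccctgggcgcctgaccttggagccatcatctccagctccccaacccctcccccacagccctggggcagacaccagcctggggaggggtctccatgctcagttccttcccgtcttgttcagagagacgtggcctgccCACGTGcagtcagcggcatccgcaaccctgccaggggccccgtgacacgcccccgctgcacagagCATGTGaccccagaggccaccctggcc

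Windows reaching from 250 bases before to 50 bases after each start were searched for CATGTG on both strands (read as CACATG on the other strand) and for CACGTG, which reads the same on both. TBC1D16 had no window in the sequence table, so 9 of the 10 genes could be searched, with 20 windows in all. At least 1 match was found for 8 of these 9 genes and in 10 of the 20 windows; over all 35116 windows of the table the share was 17.6%, and over all 27305 genes 20.9%. A gene with more annotated starts has more windows in which a match can fall. GPNMB held CACATG 123 and 62 bases before its start, and both of these extend to CACATGA, the M-box TCATGTG read from the other strand, which occurred in 2.92% of all windows. EDNRB held CACATG 151 bases before the first of its 2 annotated starts, and the window of its other start held no match. TRPM1 held CACATG 56 bases before the start shown. BIRC7 held CACGTG 92 bases and CATGTG 27 bases before its start. QPCT had neither set of letters in its window. A match is a description of the letters and says nothing of binding in these cells.

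TRPM1 carries the microRNA gene MIR211 in an intron, and the mature products are shown because the host transcript is their source. Bases 2 to 8, the seed, are in capitals. They lie on the minus strand of GRCh38.p14 at chr15:31065095-31065116 for the 5p arm and chr15:31065059-31065079 for the 3p arm.
hsa-miR-211-5p: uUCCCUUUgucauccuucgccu
hsa-miR-211-3p: gCAGGGACagcaaaggggugc

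All values are the deposited log2 expression values, a brightness scale on which a difference of 1 is 2-fold and on which probe sets of different genes cannot be set against each other. Gene means ran around a median of 6.06, with quartiles of 4.81 and 7.87. Each change is a difference of log2 means between groups, given ± SE as fitted in limma over all 18404 genes (n = 3 arrays a group), and a gene was called at a Benjamini-Hochberg adjusted p under 0.05. Replicate arrays correlated at r of 0.9978 to 0.9989 across genes, except replicate 1 of A375 with vemurafenib, whose correlations with replicates 2 and 3 were 0.9941 and 0.9939. All 10 genes of an ERK output list (DUSP6, SPRY4 and others) were called lower with vemurafenib in each line. The shares of all genes called lower were 19.3% in A375 and 12.5% in A2058. That list was written with earlier results of these data known. MITF itself read 9.07, 9.05 and 9.11 in A375 with vemurafenib, against 8.29, 8.40 and 8.34 with DMSO. In A2058 it read 10.50, 10.51 and 10.50 with vemurafenib, against 9.68, 9.80 and 9.84 with DMSO. The MITF change was 0.73 ± 0.0467 in both lines (adjusted p = 5.66e-08 in A375 and 1.21e-07 in A2058, limma). In cultured cells measured in bulk, fewer cells of a kind and less RNA per cell cannot be told apart.

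In A375, vemurafenib raised 4 of the 8 measured targets, namely EDNRB, GPNMB, QPCT and TBC1D16, and lowered none. Of all genes, 17.7% were called higher and 19.3% lower in this comparison. The median change of the 8 was 0.26, against 0.0042 over all genes. In A2058, it raised 6 of the 8, the same 4 with GPM6B and TRPM1, and lowered none, where 14.6% of all genes were called higher and 12.5% lower. The median change of the 8 in A2058 was 0.61, against 0.0063 over all genes. ST3GAL6 and BIRC7 were called in neither line. Without replicate 1 of A375 with vemurafenib, the A375 changes were 0.61 for EDNRB, 1.44 for GPNMB, 0.37 for QPCT and 0.73 for TBC1D16, all called (adjusted p of 0.000389 or less, limma), and GPM6B was called as well.

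**Figure D1:**
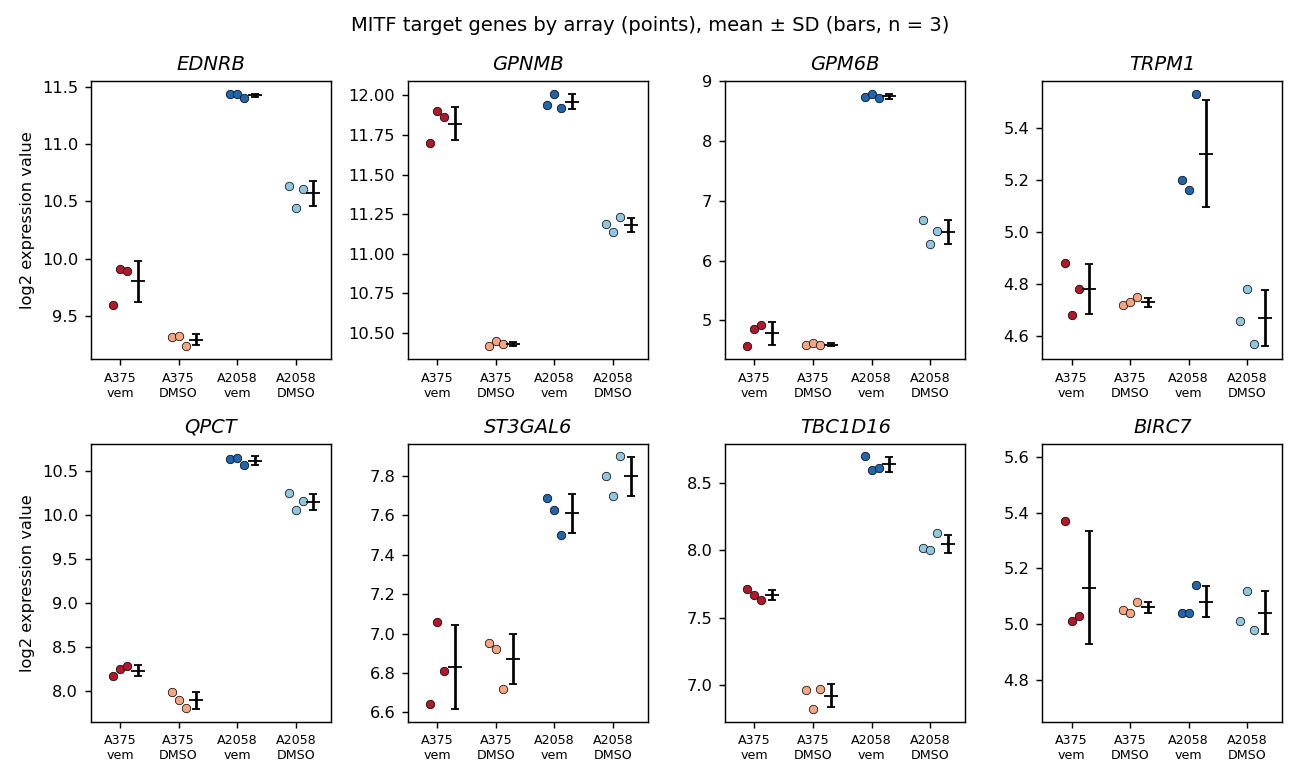
Log2 expression value (vertical axis) of each of the 8 measured targets in the 4 groups, with a point per array and a bar for the group mean ± SD (n = 3); each panel has its own vertical scale. GPNMB, EDNRB, QPCT and TBC1D16 lie higher with vemurafenib than with DMSO in both lines, GPM6B and TRPM1 lie higher in A2058, and the BIRC7 groups overlap.

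EDNRB is the G protein coupled receptor for endothelins that melanoblasts need to spread and survive. It read 9.59, 9.91 and 9.89 in A375 with vemurafenib, against 9.31, 9.32 and 9.23 with DMSO. The A2058 arrays read 11.44, 11.44 and 11.41 with vemurafenib, against 10.64, 10.44 and 10.61 with DMSO. The vemurafenib arrays lay above the DMSO arrays in each line, and every A2058 array lay above every A375 array. EDNRB rose by 0.51 ± 0.0779 in A375 (1.42-fold, adjusted p = 0.000165, limma) and by 0.87 ± 0.0779 in A2058 (1.82-fold, adjusted p = 2.73e-06).

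Of 9 measured genes of the endothelin axis, which are ligands, peptidases and G proteins, 1 was called higher and 2 lower in A375, and 0 higher and 3 lower in A2058. Of all genes, 37% were called in either direction in A375 and 27.1% in A2058, so these 3 of 9 in each line are near the share of all genes. The ligands EDN1 and EDN3 were called in neither line, with EDN1 at a mean of 5.06 in A375 with vemurafenib and 5.03 in A375 with DMSO. ECE1, the protease that cuts endothelin precursors into active peptide, fell by 0.45 ± 0.0403 in A375 (adjusted p = 1.49e-06, limma) and by 0.81 ± 0.0403 in A2058 (adjusted p = 1.18e-08). GNAQ, the G protein subunit that couples the receptor to phospholipase C, fell by 0.71 ± 0.0902 in A375 (adjusted p = 3.24e-05), and its change in A2058 was -0.13 ± 0.0902 (adjusted p = 0.398).

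GPNMB is a transmembrane glycoprotein of melanosomes and lysosomes. It read 11.70, 11.90 and 11.86 in A375 with vemurafenib, against 10.42, 10.45 and 10.43 with DMSO. A2058 gave 11.94, 12.01 and 11.92 with vemurafenib, against 11.19, 11.14 and 11.23 with DMSO. GPNMB rose by 1.38 ± 0.0519 in A375 (2.61-fold, adjusted p = 3.11e-10, limma), which was larger in size than the change of 97.6% of genes, and by 0.77 ± 0.0519 in A2058 (1.71-fold, adjusted p = 1.78e-07). Its mean over the 12 arrays lay above that of 99.5% of genes. PMEL, its nearest paralog and the protein of melanosome fibrils, moved differently: 5.18, 5 and 5.02 in A375 with vemurafenib, against 5.03, 4.92 and 5.03 with DMSO, a change of 0.078 ± 0.0553 (adjusted p = 0.335), and a rise of 2.43 ± 0.0553 in A2058 (adjusted p = 1.02e-11). The PMEL responses differed between lines by -2.35 ± 0.0782 (adjusted p = 2.96e-10), A375 minus A2058.

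GPM6B is a membrane glycoprotein of the proteolipid protein family, best known from neurons and glia. It read 4.57, 4.86 and 4.92 in A375 with vemurafenib, against 4.58, 4.62 and 4.58 with DMSO. In A2058 it read 8.74, 8.79 and 8.71 with vemurafenib, against 6.67, 6.27 and 6.49 with DMSO. The A375 groups overlapped through replicate 1 with vemurafenib, and the A2058 groups stood well apart. The A375 means of 4.78 with vemurafenib and 4.59 with DMSO lie below the lower quartile of gene means, where the scale compresses differences, which limits the A375 change and each difference between the lines. The GPM6B change was 0.19 ± 0.0984 in A375 (95% interval -0.02 to 0.40, adjusted p = 0.169, limma). Without replicate 1 it was 0.30 and was called (adjusted p = 0.0117). In A2058 GPM6B rose by 2.27 ± 0.0984 (4.81-fold, adjusted p = 3.12e-09), the change of rank 47 by size among the 18404 genes. Its paralog GPM6A rose by 0.26 ± 0.0668 in A375 (adjusted p = 0.00704), and its change in A2058 was 0.079 ± 0.0668 (adjusted p = 0.508). In A375 GPM6A read 4.97, 4.69 and 4.77 with vemurafenib, against 4.59, 4.53 and 4.52 with DMSO. These values also lie near the lower end of the scale, and the highest was replicate 1 with vemurafenib.

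TRPM1 is a cation channel of melanocytes and retinal bipolar cells. It read 4.88, 4.68 and 4.78 in A375 with vemurafenib, against 4.72, 4.73 and 4.75 with DMSO. The A2058 arrays read 5.20, 5.16 and 5.53 with vemurafenib, against 4.66, 4.78 and 4.57 with DMSO. The A375 groups overlapped, with means of 4.78 and 4.73 below the lower quartile of gene means, and in A2058 every vemurafenib array lay above every DMSO array. The TRPM1 change was 0.046 ± 0.0895 in A375 (95% interval -0.15 to 0.24, adjusted p = 0.776, limma), and TRPM1 rose by 0.63 ± 0.0895 in A2058 (1.54-fold, adjusted p = 0.000155). The probe set named for MIR211, whose mature sequences are printed above, changed by 0.070 ± 0.102 in A375 (adjusted p = 0.69) and by 0.016 ± 0.102 in A2058 (adjusted p = 0.956). That probe set measures RNA from the gene on a total RNA array and does not count the mature microRNA.

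Among 7 other melastatin channels, 2 were called higher in A375 and 0 lower, and 1 higher and 1 lower in A2058. Over all genes, 37% were called in either direction in A375 and 27.1% in A2058, so these counts are near the share of all genes. TRPM3 rose by 0.96 ± 0.0639 in A375 (adjusted p = 8.08e-08, limma). TRPM8, a cold-sensing channel, rose by 0.60 ± 0.0446 in A375 (adjusted p = 2.23e-07) and fell by 0.51 ± 0.0446 in A2058 (adjusted p = 1.97e-06). TRPM7, a channel fused to a kinase, rose by 0.48 ± 0.0745 in A2058 (adjusted p = 0.000285).

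QPCT encodes glutaminyl cyclase, which turns the amino-terminal glutamine of secreted peptides into pyroglutamate. It read 8.17, 8.25 and 8.28 in A375 with vemurafenib, against 7.99, 7.90 and 7.80 with DMSO. A2058 gave 10.64, 10.65 and 10.57 with vemurafenib, against 10.25, 10.06 and 10.16 with DMSO. The groups did not overlap in either line. QPCT rose by 0.34 ± 0.0608 in A375 (1.26-fold, adjusted p = 0.000639, limma) and by 0.47 ± 0.0608 in A2058 (1.38-fold, adjusted p = 7.29e-05). Its Golgi paralog QPCTL was called in neither line, with changes of -0.038 ± 0.065 in A375 (adjusted p = 0.739) and 0.18 ± 0.065 in A2058 (adjusted p = 0.0564).

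ST3GAL6 is a sialyltransferase that adds sialic acid to galactose on glycan chains. It read 6.64, 7.06 and 6.81 in A375 with vemurafenib, against 6.95, 6.92 and 6.72 with DMSO. In A2058 it read 7.69, 7.63 and 7.50 with vemurafenib, against 7.80, 7.70 and 7.90 with DMSO. The A375 groups overlapped, and the A2058 vemurafenib arrays lay just below the DMSO arrays. The change was -0.03 ± 0.1 in A375 (95% interval -0.25 to 0.19, adjusted p = 0.869, limma) and -0.20 ± 0.1 in A2058 (95% interval -0.42 to 0.02, adjusted p = 0.196). In a fit of the 6 A2058 arrays alone the A2058 change was called lower (adjusted p = 0.0473).

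Of 19 other sialyltransferases, 5 were called higher and 6 lower in A375, and 6 higher and 5 lower in A2058. The shares of all genes were 17.7% higher and 19.3% lower in A375, and 14.6% higher and 12.5% lower in A2058. ST3GAL5, the enzyme that makes ganglioside GM3, fell by 1.31 ± 0.0645 in A375 (adjusted p = 4.25e-09, limma) and changed by 0.037 ± 0.0645 in A2058 (adjusted p = 0.804). ST3GAL2 fell by 1.02 ± 0.0473 in A375 (adjusted p = 2.48e-09) and by 0.20 ± 0.0473 in A2058 (adjusted p = 0.00702). ST6GALNAC3 rose furthest of the 19 in A375, with means of 8.45 with vemurafenib and 7.53 with DMSO.

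TBC1D16 is a GTPase activating protein for Rab proteins, the switches of vesicle traffic. It read 7.71, 7.67 and 7.63 in A375 with vemurafenib, against 6.96, 6.82 and 6.97 with DMSO. The A2058 arrays read 8.70, 8.60 and 8.61 with vemurafenib, against 8.02, 8 and 8.13 with DMSO. The groups stood apart in both lines. TBC1D16 rose by 0.75 ± 0.0526 in A375 (1.68-fold, adjusted p = 1.33e-07, limma) and by 0.59 ± 0.0526 in A2058 (1.5-fold, adjusted p = 2.66e-06). Of 29 related TBC1D proteins and Rab4 or Rab5 genes, 8 were called higher and 11 lower in A375, and 10 higher and 3 lower in A2058. The shares of all genes were 17.7% higher and 19.3% lower in A375, and 14.6% higher and 12.5% lower in A2058. TBC1D4, known for its part in glucose transporter traffic, fell by 0.94 ± 0.0515 in A375 (adjusted p = 1.22e-08). It fell by 0.93 ± 0.0515 in A2058 (adjusted p = 3.03e-08). RAB5B rose furthest of the 29 in A2058, with means of 10.19 with vemurafenib and 9.55 with DMSO.

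BIRC7, also known as livin or ML-IAP, belongs to the inhibitors of apoptosis. It read 5.37, 5.01 and 5.03 in A375 with vemurafenib, against 5.05, 5.04 and 5.08 with DMSO. A2058 gave 5.04, 5.04 and 5.14 with vemurafenib, against 5.01, 5.12 and 4.98 with DMSO. All 4 groups overlapped, and 11 of the 12 arrays lay between 4.98 and 5.14; the exception was replicate 1 of A375 with vemurafenib. The change was 0.078 ± 0.0817 in A375 (95% interval -0.10 to 0.26, adjusted p = 0.557, limma) and 0.039 ± 0.0817 in A2058 (95% interval -0.14 to 0.22, adjusted p = 0.84). Among 8 measured family members and antagonists, 3 were called higher and 3 lower in A375, and 0 higher and 2 lower in A2058. The shares of all genes were 17.7% higher and 19.3% lower in A375, and 14.6% higher and 12.5% lower in A2058. BIRC5 (survivin) rose by 0.56 ± 0.0553 (adjusted p = 3.29e-06, limma) and XIAP by 0.47 ± 0.061 (adjusted p = 4.04e-05) in A375. BIRC2 rose by 0.42 ± 0.0707 in A375 (adjusted p = 0.000326) and fell by 0.51 ± 0.0707 in A2058 (adjusted p = 0.00013). HTRA2 fell furthest of these 8 in A375, with means of 8.82 with vemurafenib and 9.16 with DMSO.

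**Figure D2:**
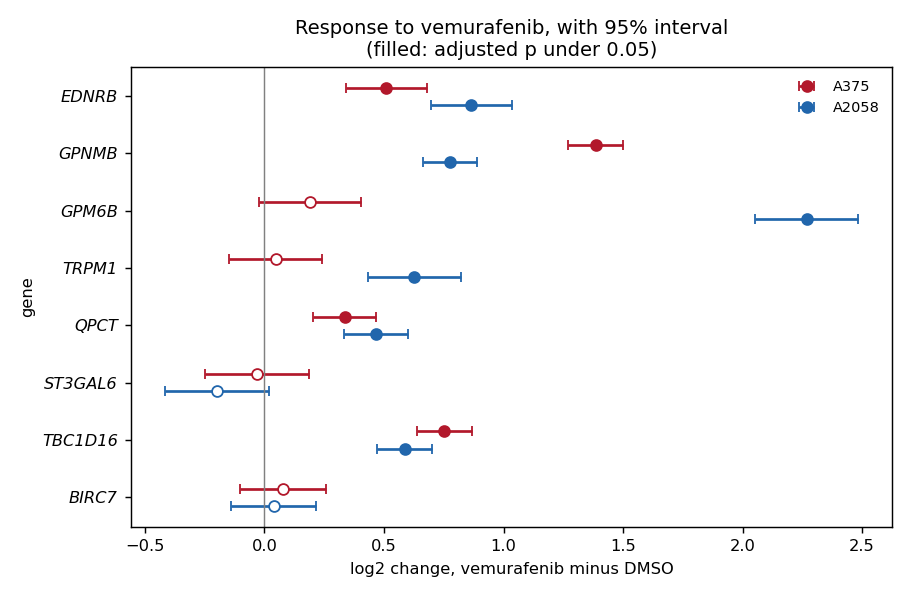
Change with vemurafenib (log2, horizontal axis; point at the estimate, bar for the 95% interval) of the 8 targets, with A375 in red above A2058 in blue and filled points for called changes. GPM6B lies at 0.19 in A375 and 2.27 in A2058, and GPNMB at 1.38 in A375 and 0.77 in A2058.

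The difference of the vemurafenib responses, A375 minus A2058, was tested in the same fit. It was called positive for 1 of the 8 targets and negative for 3, where 13.1% and 16.4% of all genes were called. GPNMB responded more in A375, by 0.61 ± 0.0734 (adjusted p = 3.46e-05, limma). GPM6B responded less in A375, by -2.08 ± 0.139 (adjusted p = 1.78e-07), and so did TRPM1, by -0.58 ± 0.127 (adjusted p = 0.00353). The EDNRB difference of -0.36 ± 0.11 (adjusted p = 0.0273) lost its call when any of 5 single arrays was left out, with adjusted p of 0.0548 to 0.0681. For QPCT the difference was -0.13 ± 0.086 (95% interval -0.32 to 0.06, adjusted p = 0.328) and for TBC1D16 0.17 ± 0.0745 (95% interval 0.00 to 0.33, adjusted p = 0.128). The ST3GAL6 difference was 0.17 ± 0.142 (95% interval -0.14 to 0.47, adjusted p = 0.485) and that of BIRC7 0.039 ± 0.116 (95% interval -0.21 to 0.29, adjusted p = 0.882). For MITF itself the same difference was 0.0027 ± 0.0661 (adjusted p = 0.987).

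The lines also differed without vemurafenib. With DMSO, 6 of the 8 targets were lower in A375 than in A2058 and none was higher, where 22.5% of all genes were called lower and 23.9% higher. The arrays of the lines did not overlap for these 6, with every A375 array below every A2058 array, as held for 28.3% of all genes. The A375 minus A2058 difference with DMSO was -2.26 ± 0.0608 for QPCT (adjusted p = 1.21e-11, limma), -1.89 ± 0.0984 for GPM6B (adjusted p = 5.81e-09) and -1.28 ± 0.0779 for EDNRB (adjusted p = 2.52e-08). It was -1.13 ± 0.0526 for TBC1D16 (adjusted p = 2.01e-09), -0.94 ± 0.1 for ST3GAL6 (adjusted p = 4.64e-06) and -0.75 ± 0.0519 for GPNMB (adjusted p = 8.14e-08). TRPM1 (0.063 ± 0.0895, adjusted p = 0.646) and BIRC7 (0.019 ± 0.0817, adjusted p = 0.893) were not called, and both read near the lower end of the scale in all 6 DMSO arrays. MITF was lower in A375 by the same comparison, at -1.43 ± 0.0467 (adjusted p = 8.16e-11).

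With vemurafenib, 7 of the 8 were lower in A375 than in A2058, where 24.2% of all genes were called lower and 22.7% higher. The GPM6B difference was -3.96 ± 0.0984 (adjusted p = 4.11e-12, limma). Because GPM6B read near the lower end of the scale in A375, this difference may understate the true one. QPCT differed by -2.39 ± 0.0608 (adjusted p = 5.27e-12), EDNRB by -1.63 ± 0.0779 (adjusted p = 2.01e-09) and TBC1D16 by -0.97 ± 0.0526 (adjusted p = 7.28e-09). ST3GAL6 differed by -0.77 ± 0.1 (adjusted p = 2.65e-05) and TRPM1 by -0.52 ± 0.0895 (adjusted p = 0.00031). GPNMB stood at 11.82 ± 0.103 in A375 and 11.96 ± 0.047 in A2058 (SD, n = 3 each), a difference of -0.14 ± 0.0519 (adjusted p = 0.0427) that was lost without replicate 1 of A375 with vemurafenib (adjusted p = 0.139) and in several other settings.

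**Figure D3:**
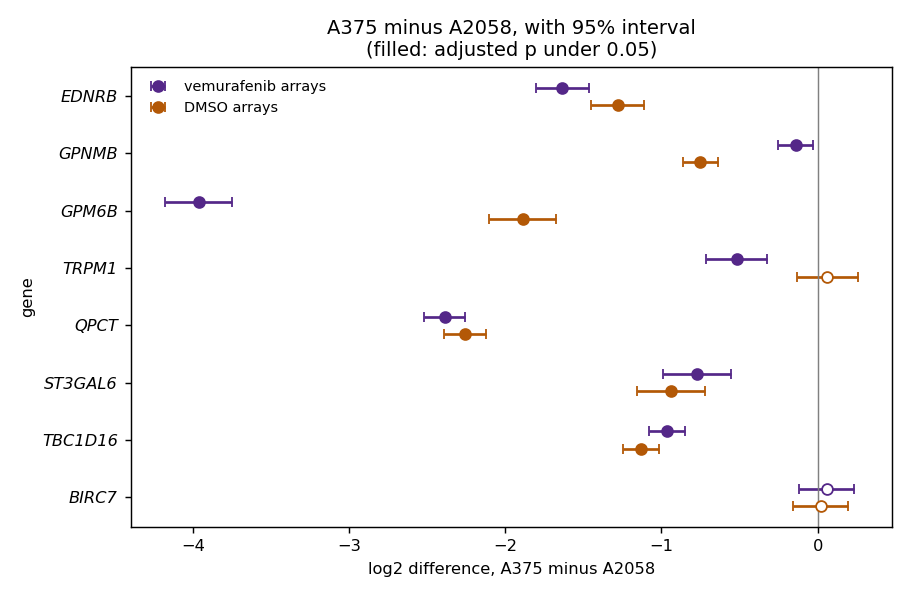
Difference between lines, A375 minus A2058 (log2, horizontal axis; bar for the 95% interval), of the 8 targets, with vemurafenib in purple above DMSO in brown and filled points for called differences. GPM6B lies at -3.96 with vemurafenib and -1.89 with DMSO, and GPNMB at -0.14 with vemurafenib and -0.75 with DMSO.

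The order of the 4 groups was the same for EDNRB, QPCT, TBC1D16, GPM6B and GPNMB in one respect: A2058 with vemurafenib was highest and A375 with DMSO lowest. For GPNMB, A375 with vemurafenib stood second, above A2058 with DMSO. For GPM6B, the A375 groups were neighbours that overlapped. For ST3GAL6, A2058 with DMSO was highest and the A375 groups overlapped at the lower end.

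Other genes known as MITF targets were read as well, from lists written from general knowledge with earlier results of these data known. Over all genes, 17.7% were called higher and 19.3% lower in A375, and 14.6% higher and 12.5% lower in A2058. Of 62 further MITF targets measured, 24 were called higher and 12 lower in A375 (median 0.09), and 45 higher and 7 lower in A2058 (median 0.6). The largest rises among them in A375 were of the cysteine protease CTSK, by 3.18 ± 0.0925 (adjusted p = 2.68e-11, limma), the chloride channel BEST1, by 2.47 ± 0.0642 (adjusted p = 9.02e-12), and HPGD, which inactivates prostaglandins, by 2.41 ± 0.0919 (adjusted p = 3.6e-10). Those that fell furthest in A375 were MET, the hepatocyte growth factor receptor, at -1.07 ± 0.0632 (adjusted p = 2.47e-08), TRPV2, at -1.03 ± 0.0508 (adjusted p = 4.32e-09), and IVNS1ABP, at -0.86 ± 0.0873 (adjusted p = 4.24e-06). In A2058 the largest rises were of the myosin MYO1D, by 2.40 ± 0.103 (adjusted p = 2.87e-09), the semaphorin receptor PLXNC1, by 2.02 ± 0.0628 (adjusted p = 1.64e-10), and MBP, by 1.66 ± 0.066 (adjusted p = 1.42e-09). Those that fell furthest there were the adhesion molecule CEACAM1, at -0.89 ± 0.0666 (adjusted p = 4.82e-07), ST8SIA1, which makes ganglioside GD3, at -0.56 ± 0.0905 (adjusted p = 0.00043), and TRPV2, at -0.54 ± 0.0508 (adjusted p = 4.13e-06).

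Of 16 pigment genes, 1 was called higher and 3 lower in A375 (median -0.01), and 15 higher and 0 lower in A2058 (median 0.83). The difference of responses, A375 minus A2058, was called negative for 15 of the 16 and positive for 0, and for the 62 further targets it was called negative for 33 and positive for 11. Over all genes it was called negative for 16.4% and positive for 13.1%. In A375, 11 of the 16 pigment genes with DMSO and 12 with vemurafenib had a mean below the median of gene means. Near the lower end the scale compresses differences, which limits their A375 changes and these differences of responses. In A375 the riser was TYRP1, an enzyme of melanin synthesis, by 0.38 ± 0.134 (adjusted p = 0.0406, limma). It read 5.28, 5.34 and 5.28 with vemurafenib, against 4.56, 5.01 and 5.17 with DMSO, all below the median of gene means. The DMSO arrays were spread, with replicate 1 the lowest. The 3 that fell act in melanosome traffic: MYO5A by 0.52 ± 0.0546 (adjusted p = 5.52e-06), MREG by 0.33 ± 0.0683 (adjusted p = 0.00163) and RAB38 by 0.17 ± 0.0461 (adjusted p = 0.00933). The exception in A2058 was GPR143, at -0.10 ± 0.0721 (adjusted p = 0.431). As a check on cell identity, SOX10, the neural crest factor of melanocytes, read 9.33 to 9.43 in A375 with vemurafenib and 9.48 to 9.60 with DMSO. TYR, the first enzyme of melanin synthesis, read 4.38 to 4.87 in A375 with vemurafenib and 4.49 to 4.61 with DMSO, near the lower end of the scale, and 10.83 to 11.40 over the A2058 arrays. Without replicate 1 of A375 with vemurafenib, the A375 counts were 26 higher and 14 lower of the 62 further targets, and 1 higher and 4 lower of the 16 pigment genes.

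**Figure D4:**
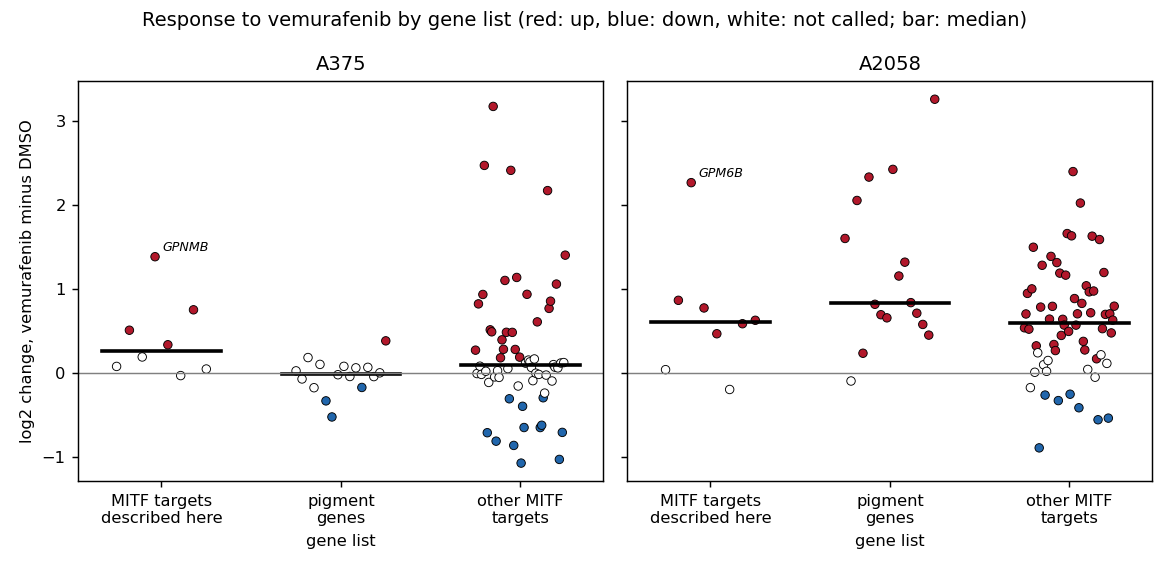
Change with vemurafenib (log2, vertical axis) of each gene in 3 lists, the 8 targets, the 16 pigment genes and the 62 further MITF targets, in A375 (left) and A2058 (right). Points are genes, red called higher, blue called lower and white not called, and bars are list medians; the pigment genes have a median of -0.01 in A375 and 0.83 in A2058.

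GPNMB and CTSK are also abundant in macrophages and osteoclasts, so markers of those cells were read beside them. Of 15 such markers, 1 was called higher and 3 lower in each line. For this and the other marker lists, the shares of all genes were 17.7% higher and 19.3% lower in A375. In A2058 these shares were 14.6% higher and 12.5% lower. Summed over the 15 markers, the log2 value was 79.2 to 81.1 in the A375 arrays with vemurafenib and 80.5 to 80.9 with DMSO. In the A2058 arrays it was 78.1 to 79.4 with vemurafenib and 80.6 to 80.7 with DMSO. PTPRC (CD45), the common leukocyte marker, read 4.11 to 4.21 over all arrays. Among the 15, MMP9 fell furthest in A375, with means of 5.55 with vemurafenib and 7.02 with DMSO. TNFRSF11A fell furthest in A2058, with means of 7.07 with vemurafenib and 8.28 with DMSO. CD68, a lysosomal protein also made outside macrophages, was the marker that rose in both lines, by 0.92 ± 0.0544 in A375 (adjusted p = 2.56e-08, limma) and by 0.21 ± 0.0544 in A2058 (adjusted p = 0.0101). GPM6B is expressed in glia, and of 9 Schwann cell and oligodendrocyte markers 3 were called higher and 1 lower in A375 and 1 higher (MBP, itself on the list of further MITF targets) and 0 lower in A2058. Of 12 skeletal muscle markers, 0 were called higher in either line, with 1 lower in A375. Endothelial markers (10 genes) gave 1 higher and 1 lower in A375 and 0 higher and 2 lower in A2058. Fibroblast markers (10 genes) gave 3 higher and 1 lower in A375 and 1 higher and 2 lower in A2058, and epithelial markers (9 genes) 0 higher and 4 lower in A375 and 0 higher and 1 lower in A2058. Their part in the results was not tested.

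Likeness across the 12 arrays was measured as the root mean square difference of log2 values after each gene was centred on its mean. On this measure 0 means the same pattern. The measured targets were left out of the ranking, so the nearest genes named are those outside the set. The genes nearest to EDNRB were ATRNL1, at 0.13, and MITF itself, at 0.138. GPNMB was nearest to ZFYVE16, at 0.127, and TPCN2, at 0.142, both of which stand on the list of further MITF targets. GPM6B was nearest to EDIL3, at 0.178, and GMPR, at 0.352, the second of these also on that list. TBC1D16 was nearest to USP54 and RBMS1, at 0.1 and 0.107, and QPCT to CENPI and SH3BP4, at 0.14 and 0.166. ST3GAL6 was nearest to TMEM14C and GINS1, at 0.1 and 0.101. TRPM1 was nearest to MEX3B and TAGLN, at 0.0939 and 0.0955, and BIRC7 to CT75 and LMO2, at 0.0296 and 0.0314; genes that vary little are near many others by this measure.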

How the data were processed

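The authors deposited log2 expression values for 32321 probe sets on 12 arrays. Per the submitters' processing notes, R 3.0.1 and affy were used; how background was corrected and probes summarised is not given in the sources used here. The log2 scale was read from the values (3.24 to 13.08), and nothing was scaled again. The number of arrays limits the precision. Of the probe sets, 19158 had a single symbol, 1388 several and 11775 none; symbols were updated through RefSeq GRCh38.p14, and the probe set with the highest mean was kept per gene, leaving 18404 genes. Groups came from the sample titles.

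A linear model with 4 group means was fitted in limma 3.58.1 (R 4.3.3; lmFit, contrasts.fit, eBayes; 8 residual and 3.98 prior degrees of freedom), two-sided, with Benjamini-Hochberg adjustment over all genes and a call at 0.05. It was tested on simulated data. Same-numbered arrays deviated with correlations of -0.294 to 0.1, and differently numbered arrays with -0.277 to 0.345. The replicate numbers thus gave no sign of pairing, which 3 arrays a group cannot exclude. Alternatives were fits of the groups compared alone, array weights, a replicate block, other probe set and dim gene rules and each array left out. The text names the 10 genes whatever their result and their relatives from written lists. It names the 2 genes outside the set nearest to each by pattern, and the 3 largest rises and falls among the further MITF targets. Which relatives, markers and regulators to describe was chosen after their values were seen. The genes and lists were chosen with earlier results of these data known.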

Additional observations from a re-analysis of the deposited data

Results flagged for a closer look

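The response to vemurafenib of 4 targets differed between the lines by the test of the difference itself, A375 minus A2058, in the limma fit over all genes. The difference was 0.61 for GPNMB (adjusted p = 3.46e-05), -2.08 for GPM6B (adjusted p = 1.78e-07), -0.58 for TRPM1 (adjusted p = 0.00353) and -0.36 for EDNRB (adjusted p = 0.0273). GPNMB is the target whose response was larger in A375; it changed by 1.38 in A375 and 0.77 in A2058. GPM6B changed by 0.19 and was not called in A375, and by 2.27 in A2058. TRPM1 changed by 0.046 and was not called in A375, and by 0.63 in A2058. TRPM1 read near the lower end of the scale in all groups but A2058 with vemurafenib, and GPM6B did so in A375. That limits what these differences show. EDNRB changed by 0.51 in A375 and 0.87 in A2058. The EDNRB difference lost its call when some single arrays were left out (adjusted p up to 0.0681, limma).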

How the results depend on the processing

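Of 312 values of the 8 genes under other settings, 303 kept their direction and their side of the threshold, as did 458 of 480 with 1 array left out. Of 117 counts, 116 stayed within 1.5 times, and all 180 with 1 array left out. For counts out of 8 this rule lets small changes pass. With 1 array left out, targets called higher in A375 numbered 4 to 5. Those called lower between lines with vemurafenib numbered 6 to 7, and those with a negative difference of responses 2 to 3. In the fit of the 2 groups' arrays alone, 1 of the 8 targets was called lower in A2058, which was ST3GAL6. Signs turned for values that were not called. With array weights, ST3GAL6 was 0.031 and BIRC7 -0.016 in A375, and the BIRC7 difference of responses was -0.052 and of lines with vemurafenib -0.025. With 1 array left out, ST3GAL6 in A375 ran from -0.14 to 0.068 (0.012 without A375 DMSO replicate 1), BIRC7 in A375 from -0.040 to 0.14 and TRPM1 in A375 from -0.0020 to 0.094. The BIRC7 difference of responses ran from -0.079 to 0.10 (-0.0049 without A2058 DMSO replicate 2), and its difference between lines from -0.059 to 0.12 with vemurafenib and from -0.011 to 0.063 with DMSO. The cause was not tested. GPM6B in A375 was 0.28 and was called with array weights (adjusted p = 0.00989). The GPNMB difference between lines with vemurafenib lost its call in the fit of the 2 groups (adjusted p = 0.126), with array weights (0.0521) and without each of 8 single arrays (0.0534 to 0.157). With the replicate block within each line, 6431 genes were called in A375 and 4522 in A2058, with 4 and 6 of the targets higher; between lines it called 6 of the 8 lower with vemurafenib and changed no other call of the targets except GPNMB there (adjusted p = 0.0513). Probe sets near the lower end of the scale compress changes, which limits what TRPM1 and BIRC7 can show, and GPM6B in A375.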

Other observations

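Factors that act beside MITF in melanocytes moved in ways not described above. TFE3, a close relative of MITF that binds the same E-box letters, rose by 0.19 ± 0.0526 in A375 (adjusted p = 0.0119, limma) and fell by 0.18 ± 0.0526 in A2058 (adjusted p = 0.0243), and the responses differed by 0.37 ± 0.0743 (adjusted p = 0.00216), A375 minus A2058. PAX3, which acts upstream of MITF, rose by 0.17 ± 0.055 in A375 (adjusted p = 0.0274) and by 1.00 ± 0.055 in A2058 (adjusted p = 2.94e-08). SOX10 fell by 0.15 ± 0.0437 in A375 (adjusted p = 0.0172) and rose by 0.27 ± 0.0437 in A2058 (adjusted p = 0.000422). LEF1, a partner of beta-catenin, fell by 2.73 ± 0.0474 in A375 (adjusted p = 2.87e-13) and by 0.77 ± 0.0474 in A2058 (adjusted p = 8.32e-08). KIT, the receptor for stem cell factor, changed by -0.014 ± 0.0469 in A375 (adjusted p = 0.873). It rose by 2.96 ± 0.0469 in A2058 (adjusted p = 1.12e-12). KIT means were 4.38 with vemurafenib and 4.39 with DMSO in A375, and 4.58 with DMSO in A2058. These lie below the lower quartile of gene means, which limits the A375 change. Also called higher in both lines were ZEB2 (2.30 in A375 and 1.15 in A2058), FOXD3 (1.69 and 0.56), TFAP2A (1.36 and 0.81) and USF1 (0.42 and 0.42). USF2 fell by 0.45 in A375 and was not called in A2058. POU3F2 rose by 0.50 in A375 and fell by 0.75 in A2058. Of the 21 lineage regulators listed, 8 were called higher and 6 lower in A375, and 10 higher and 4 lower in A2058. The shares of all genes were 17.7% higher and 19.3% lower in A375, and 14.6% higher and 12.5% lower in A2058.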
